A study of Mus musculus with 12 samples.

Results

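Dct, Pmel and Sox10 are genes of the pigment cell lineage. They were measured in mouse skin taken at 4 times after a thermal injury (0 hours, 2 hours, 3 days, 14 days), with 1 Affymetrix array of total RNA for each of 3 replicates per time, 12 arrays in all. The members are the probe sets whose annotation names exactly 1 of these genes. There were 3 of them among the 7275 probe sets, 1 per gene, out of 5599 genes that a probe set names (103597_at for Dct, 102930_at for Pmel and 102856_at for Sox10). The labels give neither the strain, coat colour, age and sex of the mice, nor the state of the 0 hours skin (burnt or not), nor whether replicates are separate animals. The p-values therefore reflect the scatter among these samples, and that scatter could be technical.

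Melanocytes make melanin inside melanosomes and pass these organelles to neighbouring keratinocytes. In mouse trunk skin most of them reside in hair follicles, where pigment is made while a hair grows. Dct, dopachrome tautomerase, is an enzyme of eumelanin synthesis downstream of tyrosinase. Pmel forms the amyloid fibrils on which melanin is laid down in the early melanosome. Sox10 is a transcription factor of neural crest derivatives that acts on Mitf and on pigment genes such as Dct, and it is also a factor of Schwann cells.

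The promoter of Dct is shown because Dct is the member with a promoter window in the RefSeq table, and that of the related enzyme Tyrp1 is set beside it for its shared motif. The windows run from 250 bases before to 50 bases after the annotated transcript start, 5′ to 3′ on the gene's own strand, in build GRCm38.p6. Dct lies at chr14:118052197-118052496 on the minus strand and Tyrp1 at chr4:80833963-80834262 on the plus strand. Capitals mark CATGTG, the core of the M-box bound by MITF, and ACAAAG, a core motif of SOX factors, each on either strand (CACATG and CTTTGT on the other).
Dct: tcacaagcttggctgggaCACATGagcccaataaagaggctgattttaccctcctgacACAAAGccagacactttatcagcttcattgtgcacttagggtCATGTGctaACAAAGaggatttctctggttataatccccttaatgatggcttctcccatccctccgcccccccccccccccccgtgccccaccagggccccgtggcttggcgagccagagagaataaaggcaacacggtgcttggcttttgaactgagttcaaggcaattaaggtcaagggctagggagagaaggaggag
Tyrp1: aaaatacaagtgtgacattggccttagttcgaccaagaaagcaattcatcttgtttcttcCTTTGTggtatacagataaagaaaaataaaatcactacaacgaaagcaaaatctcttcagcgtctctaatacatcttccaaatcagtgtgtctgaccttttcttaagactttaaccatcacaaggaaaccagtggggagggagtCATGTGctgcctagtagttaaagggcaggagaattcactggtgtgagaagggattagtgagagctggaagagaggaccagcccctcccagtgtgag

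In the Dct window CATGTG began 150 bases before the start on the gene's strand, and its reverse complement began 232 bases before it. ACAAAG began 192 and 141 bases before the start of Dct, and none of these matches overlapped another. Tyrp1 had 1 match of each motif, with CATGTG beginning 46 bases before its start. Of all 32851 windows of 300 bases, 14.2% held CATGTG on either strand and 2.08% held it more than once, while 18.7% held ACAAAG and 2.37% held it more than once. Of 13 listed genes of melanin synthesis and the melanosome, 9 had a window and 6 of these held CATGTG. The matches describe letters in these windows, not bound sites.

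Dct was higher at 14 days than at every earlier time point. Its signal on the 3 arrays was 304.5, 529.0 and 383.7 for 0 hours, 396.5, 405.1 and 336.2 for 2 hours, 353.7, 413.2 and 413.0 for 3 days, and 882.5, 1547.5 and 1155.4 for 14 days. The 9 earlier arrays overlapped one another across time points, and the lowest 14 days array lay above the highest of them, 0 hours replicate 2. Mean Dct signal was 405.7 ± 113.9 for 0 hours, 379.3 ± 37.5 for 2 hours, 393.3 ± 34.3 for 3 days and 1195 ± 334 for 14 days (SD, n = 3 each).

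Pmel was likewise higher at 14 days than at the other times. Its signal was 284.0, 242.2 and 278.0 for 0 hours, 259.4, 230.2 and 145.5 for 2 hours, 229.1, 310.2 and 266.5 for 3 days, and 667.1, 1160.2 and 1231.1 for 14 days. The 14 days arrays again lay above all others, and before 14 days Pmel was close to the floor of 225.375 signal units (the 25th percentile of all values) to which lower values were set before taking log2. Only 2 hours replicate 3 lay below that floor. The files give no detection calls, so whether Pmel was above background before 14 days is not known. Mean Pmel signal was 268.1 ± 22.6 for 0 hours, 211.7 ± 59.2 for 2 hours, 268.6 ± 40.6 for 3 days and 1019 ± 307 for 14 days (SD, n = 3 each).

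Sox10 had no step of that kind. It measured 554.7, 679.0 and 735.4 for 0 hours, 643.8, 653.3 and 638.3 for 2 hours, 452.2, 708.7 and 667.2 for 3 days, and 765.7, 794.6 and 732.9 for 14 days. The 14 days arrays overlapped those of 0 hours through replicate 3 of each, and lay above all arrays of 2 hours and of 3 days. Mean Sox10 signal was 656.4 ± 92.5 for 0 hours, 645.1 ± 7.59 for 2 hours, 609.4 ± 137.7 for 3 days and 764.4 ± 30.9 for 14 days (SD, n = 3 each). The spread within the time points came mostly from 0 hours replicate 1 and 3 days replicate 1, the lowest arrays.

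**Figure D1:**
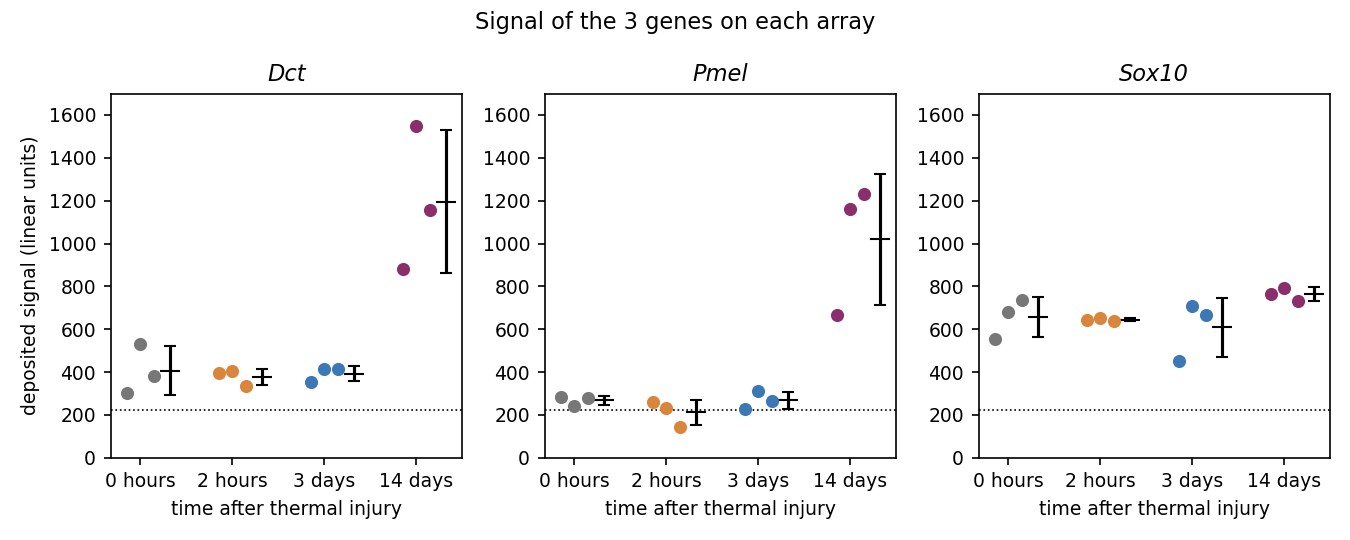
Deposited signal (linear units, vertical axis) of Dct, Pmel and Sox10 on each array (points, replicates 1 to 3 from left to right) by time after thermal injury, with the mean and SD of 3 arrays in black and the floor of 225.375 as a dotted line. Dct and Pmel sit above all 9 earlier arrays at 14 days, with lowest values of 882.5 and 667.1, while Sox10 runs between 452.2 and 794.6.

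The moderated F-test of limma over the 4 time points, run on 3477 genes, called Dct (Benjamini-Hochberg adjusted p = 0.00061) and Pmel (adjusted p = 9.0e-05) but not Sox10 (adjusted p = 0.50). It called 21.2% of all genes tested at an adjusted p under 0.05. All 3 genes were tested, but 2 of them entered through their 14 days values. The filter asks for a signal above the median of all values (475.55) on at least 3 arrays. Pmel passed it on the 3 arrays of 14 days alone and Dct on these and 1 other, whereas Sox10 exceeded it on 11 arrays. With no filter, Dct changed by 1.56 and Pmel by 1.88 on the log2 scale at 14 days against 0 hours, with limma adjusted p of 0.0067 and 0.0021. At 14 days against 2 hours the limma adjusted p with no filter was 0.0042 for Dct and 0.00070 for Pmel, and against 3 days it was 0.012 and 0.0033.

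At 14 days against 0 hours the question is how the skin differs late after the injury. Dct rose 2.94-fold (log2 change 1.56 ± 0.24 SE, 95% confidence interval 1.05 to 2.07, limma adjusted p = 0.0015). Pmel rose 3.68-fold (1.88 ± 0.23, interval 1.39 to 2.37, limma adjusted p = 0.00027). For Sox10 the log2 change was 0.23 ± 0.20, with an interval of −0.19 to 0.65 (limma adjusted p = 0.49). In this comparison 10.2% of all genes tested were called, and 6.90% were called higher at 14 days. By size of the change upward, Pmel ranked 25 and Dct 48 of the 3477 genes.

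Against 2 hours the 14 days values gave the same picture. Dct was 3.08-fold higher at 14 days (1.62 ± 0.24, limma adjusted p = 0.00066). Pmel was 4.14-fold higher (2.05 ± 0.23, limma adjusted p = 6.0e-05), a value that depends on the floor, to which 1 of the 3 arrays at 2 hours was raised. With the floor at the 40th percentile of all values the log2 change was 1.45 (limma adjusted p = 0.00042), and with the floor at the 10th it was 2.26 (limma adjusted p = 0.00015). Sox10 differed by 0.24 ± 0.20 (interval −0.18 to 0.67, limma adjusted p = 0.46), although its arrays did not overlap. Of all genes 12.3% were called in this comparison, 6.84% higher, and 19.7% lay higher at 14 days without overlap.

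Of the 6 comparisons, that of 14 days with 3 days called the fewest genes, 3.39% of all tested, and 1.29% were called higher. Both Dct and Pmel were among the 45 that rose, having entered the test through their 14 days values. Dct was 2.97-fold higher (1.57 ± 0.24, interval 1.06 to 2.08, limma adjusted p = 0.0016) and Pmel 3.69-fold higher (1.88 ± 0.23, interval 1.40 to 2.37, limma adjusted p = 0.00026) at 14 days, and they ranked 20 and 10 by size among all genes. Sox10 gave 0.35 ± 0.20 with an interval of −0.07 to 0.78 (limma adjusted p = 0.58). Its arrays did not overlap, which held for 10.7% of all genes in the upward direction. Above all 9 earlier arrays at once lay 3.39% of the genes, Dct and Pmel among them.

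Before 14 days no change of the 3 genes passed the test, the smallest unadjusted p of limma being 0.47, for Pmel at 2 hours against 0 hours. At 2 hours against 0 hours, where 5.67% of all genes were called, the log2 changes were −0.06 ± 0.24 for Dct, −0.17 ± 0.23 for Pmel and −0.02 ± 0.20 for Sox10. At 3 days against 0 hours, where 13.3% were called, they were −0.01 ± 0.24, 0.00 ± 0.23 and −0.12 ± 0.20 in the same order of genes. At 3 days against 2 hours, where 9.40% were called, they were 0.05 ± 0.24, 0.16 ± 0.23 and −0.11 ± 0.20. The 95% intervals were widest for Dct, reaching from −0.57 to 0.44 at 2 hours against 0 hours, and changes inside an interval are not excluded by these arrays. The intervals are not adjusted for the number of genes tested, so they do not give the size of change that a call needs. In order of mean signal, Dct ran 14 days, 0 hours, 3 days and 2 hours, Pmel 14 days, 3 days, 0 hours and 2 hours, and Sox10 14 days, 0 hours, 2 hours and 3 days. Of the neighbours in these orders, 14 days and the next time point had arrays that did not overlap for Dct and Pmel, and the arrays of all other neighbours, those of Sox10 included, overlapped. The comparisons share arrays, so they are not independent of one another.

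**Figure D2:**
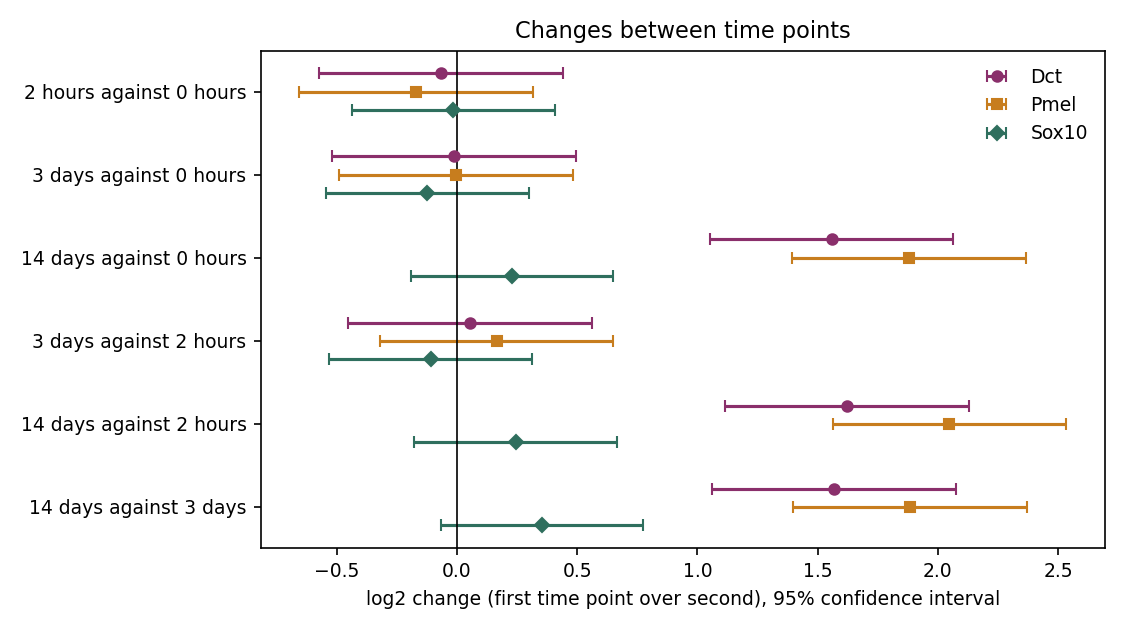
Log2 change between 2 time points (horizontal axis, the first named over the second) for Dct, Pmel and Sox10 with 95% confidence intervals from the limma fit, 1 row of points per comparison. The intervals of Dct and Pmel exclude 0 in the 3 comparisons with 14 days and include it in the others, and all intervals of Sox10 include 0.

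Within arrays, the members were set against one another as the log2 ratio of 2 genes at 14 days and on the 9 earlier arrays, as a description with no test, since the difference between time points had been seen in the single genes. The ratio of Dct over Sox10 was 0.61 ± 0.38 (SD, n = 3) at 14 days and −0.70 ± 0.22 (n = 9) earlier, a difference of 1.31. The ratio of Pmel over Sox10 was 0.37 ± 0.50 at 14 days and −1.30 ± 0.21 earlier, a difference of 1.66. The ratio of Pmel over Dct was −0.24 ± 0.29 at 14 days and −0.60 ± 0.28 earlier, a difference of 0.35. The 14 days values of each Sox10 ratio lay above all earlier ones, whereas those of Pmel over Dct overlapped them.

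Within 14 days, replicate 1 was the lowest of the 3 arrays for both Dct and Pmel, while replicate 2 was highest for Dct and replicate 3 for Pmel. Across the 12 arrays the floored log2 values of Dct and Pmel had a Pearson r of 0.945 and a Spearman rho of 0.657. Over the 9 arrays before 14 days r was −0.03 and rho 0.20, so the correlation rests on the 14 days arrays. Sox10 had r of 0.511 with Dct and 0.394 with Pmel over those 9 arrays. The points share arrays and hybridisations, and these values are descriptions.

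The genes most like Dct over the 12 arrays, by Pearson r on floored log2 values among 3476 others, were Krt25 (0.955), Pmel (0.945), Flg (0.939), Krt35 (0.920) and Krt71 (0.919). Those most like Pmel were Dct (0.945), Krt35 (0.935), Krt25 (0.920), Flg (0.916) and Casp14 (0.910). By Spearman rho Flg stayed close to Dct (0.902). The other rho values with Dct and Pmel were lower, from 0.573 for Casp14 with Pmel to 0.764 for Krt25 with Dct. Whether these likenesses hold without the 14 days arrays was not tested. Krt25 and Krt71 were raised to the floor on the arrays of 2 hours and 3 days, so their values did not vary among those arrays. Krt25 and Krt71 are keratins of the inner root sheath of the hair follicle, Krt35 is a keratin of the hair shaft, and Flg (filaggrin) and Casp14 act in cornifying epidermis. At 14 days against 0 hours Flg rose by 2.82 ± 0.24 (limma adjusted p = 1.4e-05) and Casp14 by 2.80 ± 0.22 (limma adjusted p = 8.8e-06). Those most like Sox10 were other genes, Vcp (0.886), Slc44a1 (0.839), Tmed9 (0.810), Pygo2 (0.794) and Wiz (0.789).

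Most of the tested hair follicle markers were called higher at 14 days, as Dct and Pmel were. The filter favours markers that are high then, so the counts and medians of the tested markers are partly selected by it. Krt71, Krt25, Krt27 and Krtap8-1 could pass it only through arrays of 0 hours and 14 days, being at the floor at the other times. Of 32 listed, 21 had a probe set and 13 were tested; of these 8 rose and none fell at 14 days against 0 hours, with a median log2 change of 1.34 beside 0.05 over all genes tested. At 14 days against 3 days 10 of the 13 rose (median 1.87), and against 2 hours 9 (median 2.14). The shares of all genes called higher in these comparisons were 6.90%, 1.29% and 6.84%. At 2 hours and at 3 days against 0 hours 2 of the 13 fell each time (medians −0.75 and −0.59), and none was called lower with no filter. Of all genes 5.67% and 13.3% were called there in either direction, and Dct and Pmel were not called. Whether the markers differ from Dct and Pmel before 14 days was not tested. With no filter 6 of the 13 were called higher against 0 hours, Krt27 (limma adjusted p = 0.051) and Krt33b (limma adjusted p = 0.050, just above the threshold) no longer passing, and 8 against 3 days, without Krt86 and Krtap8-1. Of the 8 untested markers none was called higher in either comparison with no filter, and 1 was against 2 hours, where 9 of the 13 were. Among 5211 genes 298 were called against 0 hours and 106 against 3 days with no filter, in either direction. Krt71 rose by 3.69 ± 0.48 (limma adjusted p = 0.00043), Krt25 by 3.65 ± 0.48 (1 of 3 arrays raised to the floor at 0 hours), Krt27 by 2.44 ± 0.55, the cuticle protein S100a3 by 1.83 ± 0.41, Krt35 by 1.80 ± 0.33 and the Hedgehog receptor Ptch1 by 1.13 ± 0.20, all against 0 hours. Krt71, Krt25, Krt27 and Krtap8-1 had a log2 change of 0 at 3 days against 2 hours, with the arrays of both times raised to the floor. The sizes of their changes against these times therefore depend on the floor, and the median of 2.14 against 2 hours is the value of Krtap8-1. The summed signal of the 21 markers was 6623 to 15481 for 0 hours, 6659 to 6845 for 2 hours, 4925 to 5941 for 3 days and 24097 to 62896 for 14 days, and no marker was at the floor on all 12 arrays. In bulk skin, fewer cells of a type and less RNA per cell cannot be told apart, and the part of hair follicle content in the values of Dct and Pmel was not tested.

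Array by array, the mean log2 signal of the 13 tested hair follicle markers was 10.24, 10.82 and 11.50 in replicates 1, 2 and 3 at 14 days, and 8.64, 9.83 and 9.30 at 0 hours. Replicate 1 was lowest in both, as it was for Dct at both time points. At 0 hours replicate 1 was also lowest for Sox10 (554.7), and its array median was the lowest of the series (448.4). At 14 days the hair follicle mean was highest in replicate 3, as Pmel was, whereas Dct was highest in replicate 2. Dct at 0 hours had its highest value, 529.0, on the array with the highest hair follicle mean, replicate 2. Pmel at 0 hours had its lowest value, 242.2, on that same array. At 2 hours and 3 days the hair follicle mean lay between 8.38 and 8.60. These orders among 3 arrays are descriptions, and a link of the members with the hair follicle mean was not tested.

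**Figure D3:**
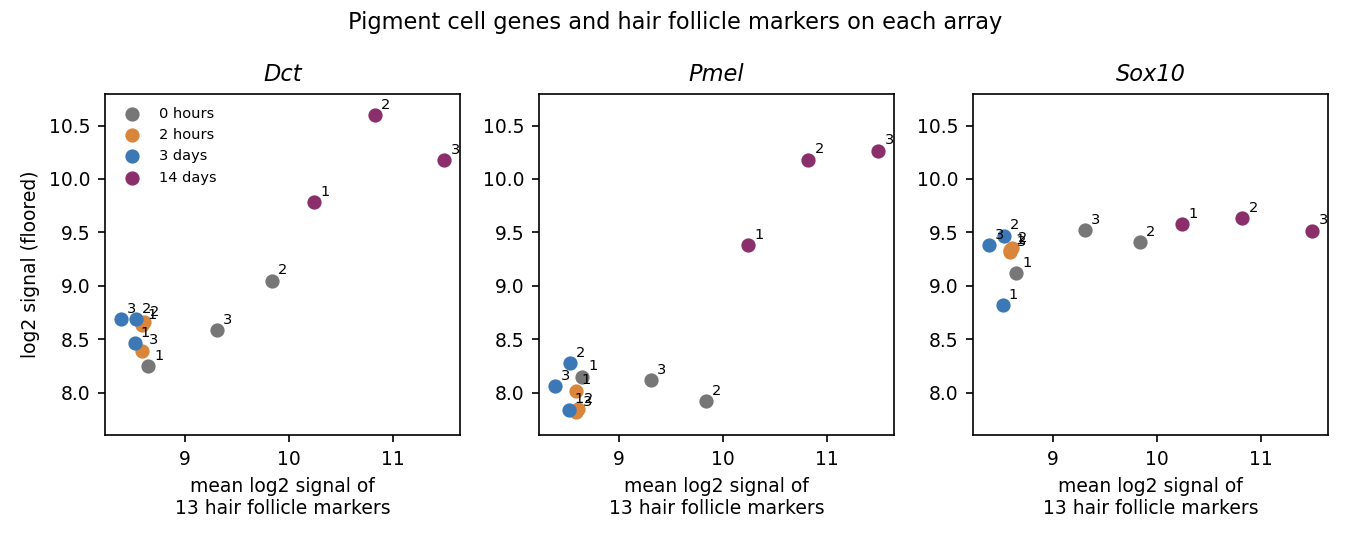
Floored log2 signal of Dct, Pmel and Sox10 (vertical axes) against the mean log2 signal of the 13 tested hair follicle markers (horizontal axes) on the 12 arrays, coloured by time point and numbered by replicate. The 14 days arrays have hair follicle means of 10.24 to 11.50 and the highest Dct and Pmel, and among the 0 hours arrays Dct, but not Pmel, is highest where the hair follicle mean is highest.

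Over 5 lists of the melanocyte pathway 71 entries were named, 24 had a probe set and 16 were tested, Dct, Pmel and Sox10 included. Of the 13 others limma called none at 14 days against 0 hours, where 5 had an unadjusted p under 0.05, with a median log2 change of 0.36 and a range of −0.48 to 0.90. Of all genes 10.2% were called there and 28% had an unadjusted p under 0.05. It called none of the 13 against 2 hours (1 at an unadjusted p under 0.05, median 0.12), where 12.3% of all genes were called and 27.4% had such a p. Against 3 days it called none either (0 at an unadjusted p under 0.05, median 0.03), beside 3.39% and 11.7% of all genes. With so few genes, none called is near these shares. That they differ from Dct and Pmel was not tested gene by gene.

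Among melanin enzymes and melanosome proteins, 4 of 13 had a probe set. Tyrp1, an oxidase of eumelanin synthesis, was too dim to be tested. Its signal was 137.9, 20.1 and 300.0 for 0 hours, 28.5, 138.6 and 93.4 for 2 hours, 37.5, 183.0 and 105.5 for 3 days, and 232.1, 471.2 and 387.1 for 14 days. All 3 arrays at 14 days were above the floor, against 1 of the 9 earlier arrays, and the groups of 14 days and 0 hours overlapped. With no filter it was not called at 14 days against 0 hours (limma adjusted p = 0.21), in a fit that raised 2 of the 3 arrays at 0 hours to the floor, so no size of the change is given. Atp7a, a copper transporter that supplies tyrosinase, gave 0.90 ± 0.46 (limma adjusted p = 0.22).

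Of the 5 tested genes of melanosome biogenesis and transport, none was called at 14 days. Cd63, a tetraspanin of melanosomes and lysosomes that binds Pmel, rose at 3 days against 0 hours (1.01 ± 0.22, limma adjusted p = 0.0086), and Hps1, mutated in Hermansky-Pudlak syndrome, fell by 0.69 ± 0.21 (limma adjusted p = 0.041). Cd63 is expressed by many cell types. At 3 days against 0 hours all 17 tested macrophage markers of 20 rose (median 1.68), where 13.3% of all genes were called in either direction. At 14 days against 0 hours 2 of these 17 rose and none fell (median 0.47), where 6.90% of all genes were called higher. Against 3 days 10 fell at 14 days (median −1.21), where 3.39% of all genes were called in either direction. The part of macrophage content in the values of Cd63, Dct and Pmel was not tested.

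Of the melanocyte transcription factors only Sox10 and Snai2 were tested, and neither was called; Snai2 gave 0.84 ± 0.27 at 14 days against 0 hours (limma adjusted p = 0.062). Tfap2a, a factor of neural crest and epidermis, did not pass the filter. Its brighter probe set measured 548.7, 601.3 and 423.7 at 14 days, against 322.6, 216.4 and 220.8 at 3 days, without overlap. Of the genes tested 10.7% lay higher at 14 days than at 3 days without overlap. With no filter Tfap2a was called higher at 14 days than at 3 days (1.03, limma adjusted p = 0.021) and lower at 3 days than at 2 hours (−0.78, limma adjusted p = 0.042). It was not called at 14 days against 0 hours (0.51, limma adjusted p = 0.13). At 3 days 2 of its 3 arrays were raised to the floor. The 3 tested receptors were not called in any comparison, with 0.64 ± 0.22 for Fgfr1 (limma adjusted p = 0.075) and 0.36 ± 0.17 for Tyro3 (limma adjusted p = 0.19) at 14 days against 0 hours. Kit, the receptor of stem cell factor, was at the floor on 11 of the 12 arrays, with 240.5 on 14 days replicate 1. Ednrb, the endothelin receptor of the lineage, was at the floor on all 12.

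Among ligands, Kitl, which encodes stem cell factor, changed early. Its signal was 522.7, 497.9 and 599.9 at 2 hours, against 235.9, 213.1 and 274.2 at 0 hours. It rose by 1.14 ± 0.20 on the log2 scale (limma adjusted p = 0.0032), with 0 hours replicate 2 raised to the floor. Of all genes tested 5.67% were called in this comparison in either direction. At 3 days Kitl was lower than at 2 hours (−0.77 ± 0.20, limma adjusted p = 0.024), where 9.40% of all genes were called. At 14 days against 0 hours it was not called (0.53 ± 0.20, limma adjusted p = 0.092). Dct, Pmel and Sox10 did not pass the test in the early comparisons in which Kitl did.

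**Figure D4:**
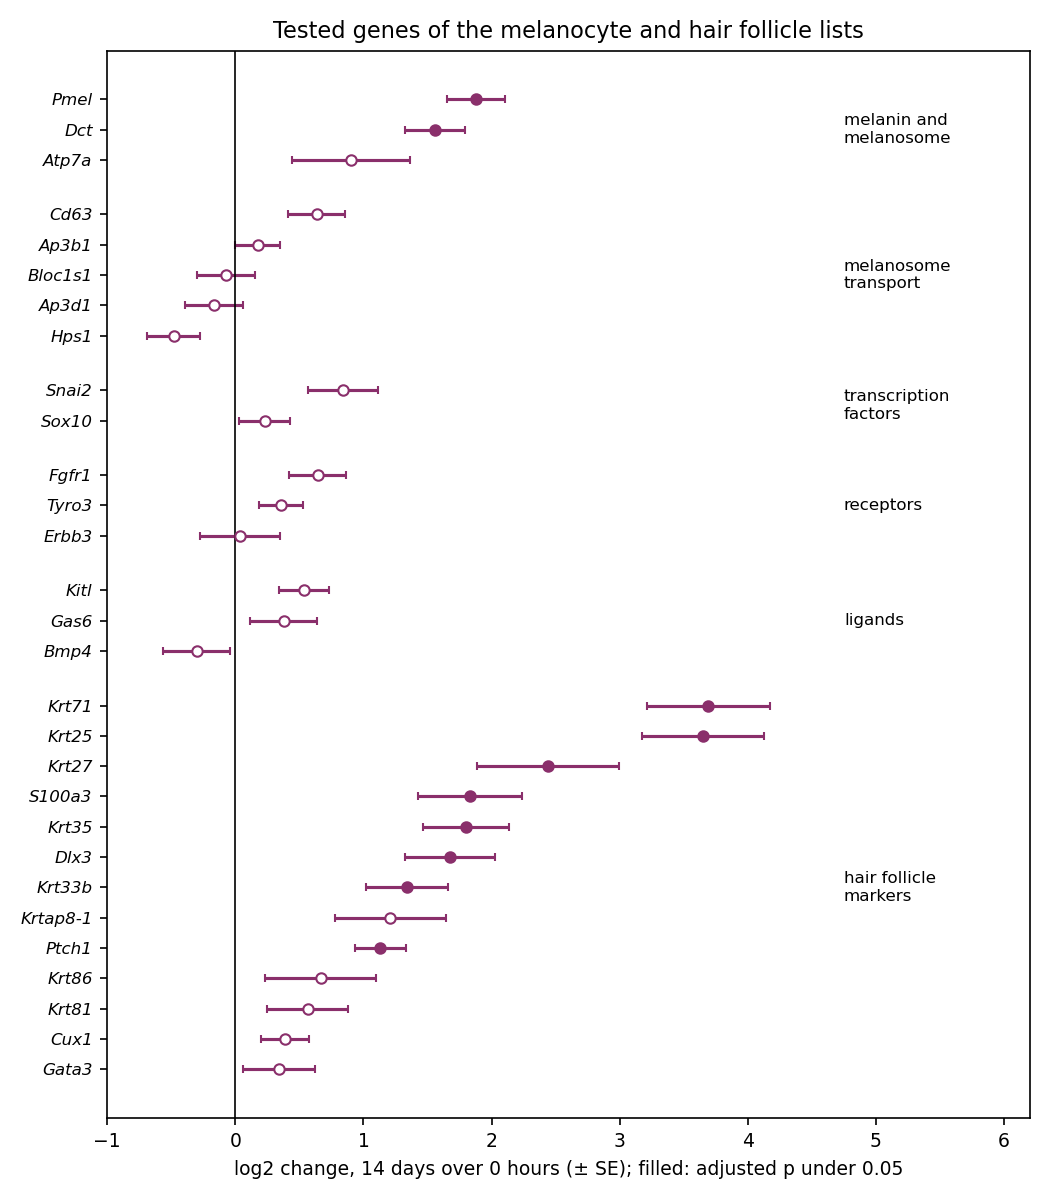
Log2 change at 14 days over 0 hours (points, with the SE of the limma fit) for the tested genes of the melanocyte lists and of the hair follicle markers, filled where the adjusted p is under 0.05. In the melanocyte lists Pmel (1.88) and Dct (1.56) are filled and 14 genes are open, and 8 of 13 hair follicle markers are filled.

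Sox10 is shared with Schwann cells, and 9 of 22 Schwann cell and nerve markers had a probe set, of which 4 were tested. The adhesion molecule Ncam1, which muscle also expresses, rose at 14 days against 0 hours (1.32 ± 0.21, limma adjusted p = 0.0018), whereas the myelin genes Mbp (−0.50 ± 0.20, limma adjusted p = 0.11) and Pmp22 (−0.08 ± 0.22, limma adjusted p = 0.86) and the myelin regulator Egr2 (0.11 ± 0.19, limma adjusted p = 0.76) were not called. Of all genes tested 6.90% were called higher there. In other comparisons Pmp22 was called higher at 2 hours than at 0 hours (0.79, limma adjusted p = 0.049) and lower at 14 days than at 2 hours (−0.87, limma adjusted p = 0.019). Mbp was lower at 3 days than at 0 hours (−0.62, limma adjusted p = 0.048), and Egr2 at 3 days than at 2 hours (−0.86, limma adjusted p = 0.011). In these comparisons 5.67%, 12.3%, 13.3% and 9.40% of all genes were called. The summed signal of the 9 markers was 5307 to 5611 for 0 hours, 6902 to 8290 for 2 hours, 4167 to 5790 for 3 days and 5216 to 5871 for 14 days. The array does not say which cells gave the Sox10 signal.

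Over the whole series, array medians ran from 448.4 to 496.4 signal units, and Spearman correlations were 0.876 to 0.960 within and 0.803 to 0.940 between time points. The skin markers Krt1, Krt10, Col1a1, Col1a2 and Col3a1 were bright on every array, the lowest value being 2783 for Krt1. The array least like the others was 0 hours replicate 3, and without it Dct changed by 1.54 and Pmel by 1.91 at 14 days against 0 hours. The log2 ratio of the 3′ over the 5′ Gapdh control probe sets, a measure of RNA quality, averaged 1.99 ± 0.29 for 0 hours, 1.54 ± 0.46 for 2 hours, 0.52 ± 0.50 for 3 days and 0.21 ± 0.08 for 14 days (SD, n = 3 each). The same ratio for beta-actin averaged 0.01 ± 0.21, 0.74 ± 0.54, 0.23 ± 0.11 and 0.35 ± 0.07 in the same order of time points, lowest at 0 hours. Of 26 tested skeletal muscle markers 15 fell and none rose at 14 days against 0 hours (median −1.12), where 10.2% of all genes tested were called in either direction. With no filter 4 of the 26 were called lower, where 298 of 5211 genes were called in either direction. At 14 days against 3 days none of the 26 was called (median 0.12), beside 3.39% of all genes tested. The part of RNA quality and of muscle content in the values of Dct and Pmel was not tested.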

How the data were processed

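The authors deposited 1 table of linear signal intensity per probe set, with a column per array; its software, scaling and detection rule: not given in the sources used here. Column names match the sample labels, which give time point and replicate. Of 7275 probe sets, 27 are controls and 6551 name 1 gene (5599 genes), by GEO's platform annotation. Intensities under 225.375 (the pooled 25th percentile) were raised to it and log2-transformed, genes had to exceed 475.55 (the median) on at least 3 arrays, and the probe set with the highest mean stood for a gene, leaving 3477 genes. limma 3.58.1 in R 4.3.3 fitted all 12 arrays with 4 time point means and no covariate (8 residual and 6.64 prior degrees of freedom), with 6 contrasts and an F-test. A call is an adjusted p (Benjamini-Hochberg) under 0.05. The number of arrays limits precision. The fit was tested on simulated data. Members, gene lists (melanin and melanosome, melanosome transport, transcription factors, receptors, ligands, Schwann cell, hair follicle, skeletal muscle, macrophage) and tests were chosen with earlier results of these data known. Named are the members, up to 6 called genes per list by F-test p (otherwise the 2 smallest), and the 5 genes most like each member; Tyrp1, Tfap2a, Kit, Ednrb, Krt33b, Krt86, Krtap8-1 and further uncalled genes given with values were added with their values known. The alternatives tried were a lower floor (10th percentile), a higher floor (40th), scaling to a common median, quantile normalization, omission of the filter, every probe set by itself, choice of probe set by variance, trended variance, a replicate block, 2 time points alone and each array left out. Promoter sequences are from RefSeq (GRCm38.p6). Figures were drawn with Python 3.11.15 and matplotlib 3.10.9.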

Additional observations from a re-analysis of the deposited data

How the results depend on the processing

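The rises of Dct and Pmel at 14 days against 0 hours, 2 hours and 3 days kept their direction and their call under each of the 10 other settings and each of the 12 arrays left out. At 14 days against 0 hours the log2 change of Dct lay between 1.48 and 1.56 over the other settings (limma adjusted p at most 0.025, with the 2 time points alone) and between 1.35 and 1.77 with 1 array left out. That of Pmel lay between 1.45, with the floor at the 40th percentile, and 1.88, and between 1.72 and 2.16 with 1 array left out. Sox10 was called under none of these settings. With 1 array left out, uncalled changes also took the other sign: at 2 hours against 0 hours Dct ran from −0.25 to 0.15 and Sox10 from −0.13 to 0.072, at 3 days against 0 hours Dct from −0.20 to 0.20, Pmel from −0.11 to 0.10 and Sox10 from −0.25 to 0.077, and at 3 days against 2 hours Dct from −0.031 to 0.13 and Sox10 from −0.23 to 0.092. The labels do not say whether replicate numbers link arrays across time points, and the values gave no sign of it. Of 18 same-numbered pairs 2 had correlated deviations over 0.1 (median −0.07), and 3 of 12 arrays correlated best with their own number. So few arrays cannot exclude a pairing. With the replicate block Dct changed by 1.56 (limma adjusted p = 0.0010) and Pmel by 1.88 (limma adjusted p = 0.00069) at 14 days against 0 hours. In that fit 317 genes were called there in place of 353, and no call of a member changed. With only the arrays of the 2 time points, genes called numbered 63 in place of 197 at 2 hours, 216 in place of 462 at 3 days and 153 in place of 353 at 14 days against 0 hours, and 675 in place of 427 at 14 days against 2 hours. With 1 array left out they ranged over 72 to 316, 178 to 558 and 119 to 486 against 0 hours, 112 to 409 (3 days) and 180 to 538 (14 days) against 2 hours, 59 to 127 at 14 days against 3 days (118 with all) and 484 to 861 in the F-test (736 with all). Signal over background was not measurable without detection calls, which limits Pmel before 14 days and Tyrp1 throughout.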
